A study of Mus musculus with 6 samples.

Results

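Collagens and the other structural genes of the extracellular matrix were examined in LPS-treated mouse bone marrow-derived macrophages with and without Capns1. The set held 76 of the 16266 genes in the deposited tables. Of these, 38 were collagen chains, found by the pattern of their symbols, and 38 were matrix glycoproteins, proteoglycans and collagen-processing enzymes taken from a list by name. The cells came from 2 groups of 3 libraries each, wild type (WT) and knockout (KO), and every library was made after 24 h of lipopolysaccharide (LPS, a bacterial cell wall component), so no group without LPS is described here. The genotype field gives WT for the first group and CAPNS1-KO, CAPNS2-KO and CAPNS3-KO for the 3 KO libraries, while the design text speaks of Capns1 for all of them. The series title places the deletion in myeloid cells, and the sources used here do not give what drove it, the age of the mice or whether a library is 1 animal. The p-values therefore measure the spread between these libraries, which may be technical.

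The extracellular matrix is the protein and sugar scaffold outside cells. Fibroblasts and other stromal cells secrete most of it: collagen chains fold in threes into rope-like molecules that assemble as fibrils or networks, after enzymes in the secretory pathway have hydroxylated them and others outside the cell have trimmed and cross-linked them. Macrophages secrete some matrix proteins themselves, among them fibronectin and osteopontin, and are better known for remodelling matrix laid down by other cells. In a bulk culture of marrow-derived cells, RNA from a few stromal cells and RNA from the macrophages are read together, and a change in the number of such cells cannot be told apart from a change in RNA per cell.

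The libraries held 32631163 to 40913819 counts. CPM below is a count scaled to its library's total. A gene with 0 counts could still have had up to 3, or 0.0733 to 0.0919 CPM depending on the library, and this limit covers counting error only. Capns1, the small subunit of calpains 1 and 2, stood at 9.53 ± 0.405 CPM in KO and 497 ± 22.3 CPM in WT (SD, n = 3), a 52.9-fold difference with adjusted p = 1.77e-10 in edgeR, and each KO library carried the loss. Macrophage markers were abundant in both groups, with all 8 markers of the list tested and summed levels of 35460.3 to 40635 CPM in KO and 36429 to 43835 CPM in WT. Of these, C1qa was called higher (0.30, adjusted p = 0.0415), a call that leaving out any single library ended (edgeR adjusted p = 0.0530 to 0.154), and 0 were called lower. Csf1r, the receptor for the macrophage growth factor M-CSF, was lower in every KO library and missed the threshold (-0.35, adjusted p = 0.0600). It was called lower with DESeq2 (adjusted p = 0.0394), with no filter on low counts in edgeR (0.0442), with a replicate block (0.0314) and without WT replicate 2 (0.0324). Lyz2 (-0.21, adjusted p = 0.293) was called lower without both WT replicate 3 and KO replicate 2 (edgeR -0.42, adjusted p = 0.00574), and Adgre1 was not called (0.16, adjusted p = 0.433). KO replicate 2 and WT replicate 3 each lay far from their own group along principal component 2 (15.9% of variance), and the results below were recomputed without them.

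Of the 76 genes, 60 had enough counts to be tested for a difference between KO and WT, and 31 were called at an adjusted p under 0.05 in edgeR: 30 rose in KO and 1, Spon1, fell. Over all 12219 tested genes, 14.6% were called in either direction, 8.44% as higher in KO and 6.21% as lower. The median log2 fold change (KO minus WT) was 0.88 for the 60 tested members and -0.011 for all tested genes. The groups were free of overlap for 37 members higher in KO and 3 lower, of the 60 tested. Among all tested genes, 33.6% were free of overlap, 18.2% as higher in KO and 15.5% as lower. The remaining 16 members, which are 14 collagen chains, Eln and Mfap5, had at most 17 counts in any library. Without WT replicate 3 and KO replicate 2, 38 members were called, 36 as higher and 2 as lower, while 26% of all tested genes were called. WT replicate 3 was the highest of the WT libraries for 32 of the 60 tested members (53.3%, against 35.7% of all tested genes). KO replicate 2 was the lowest of the KO libraries for 42 of them (70%, against 43.8%). Leaving out a high WT library and a low KO library raises the difference of such a gene. These 2 libraries were also picked from the same data, so calls gained without them are no separate support.

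**Figure D1:**
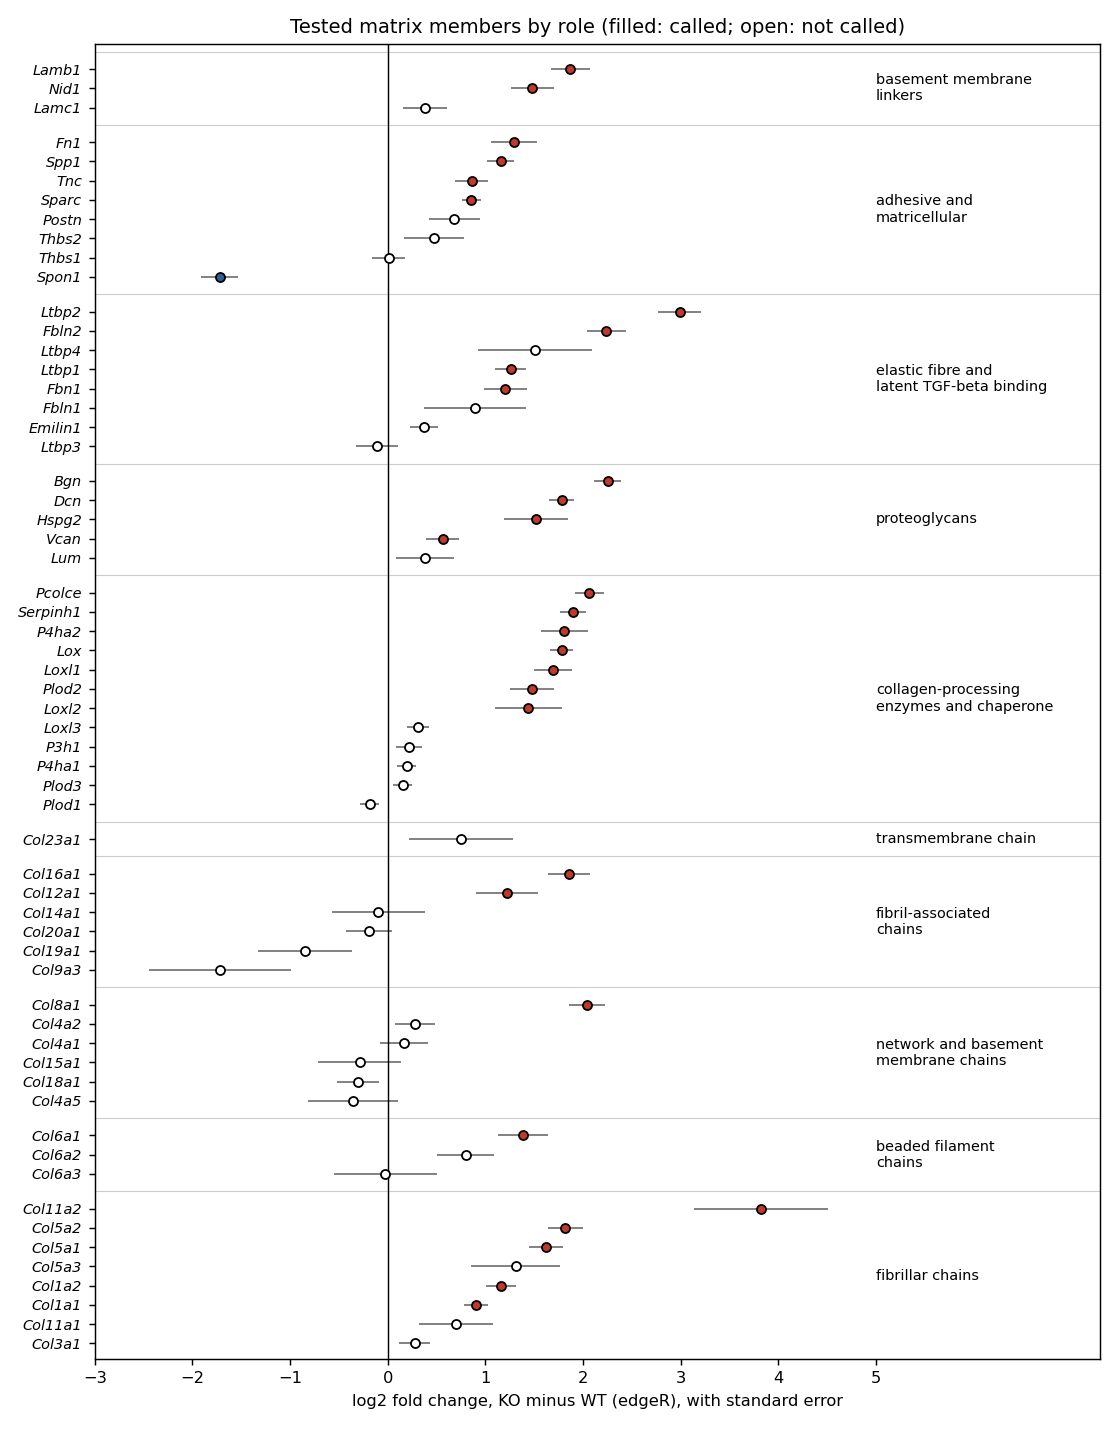
Log2 fold change (KO minus WT, horizontal axis) with its standard error for each of the 60 tested members, grouped by role; filled points were called at an adjusted p under 0.05 and open points were not. The 30 filled points to the right of 0 are spread over 9 of the 10 groups, and Spon1 is the filled point to the left of 0.

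Markers of fibroblasts and marrow stroma, none of which is a member of the matrix set, were higher in KO as well. Of 15 such markers in the table, 12 were tested, 7 rose and 0 fell, with a median log2 fold change of 1.33. Over all tested genes, 8.44% were called higher and 6.21% lower. The marker list was chosen with earlier results of these data known. The summed level of the 15 markers ranged over 70.8 to 80.4 CPM in KO and 25.5 to 32.8 CPM in WT, so the groups did not overlap. The homeobox factor Prrx1 stood at 3.06, 2.88 and 2.66 CPM in WT and 15.6, 12.9 and 16.2 CPM in KO (log2 fold change 2.35 ± 0.15 SE, adjusted p = 3.26e-06). Cadherin-11, Cdh11, an adhesion protein of mesenchymal cells, had 4.35, 5.22 and 4.96 CPM in WT and 18.4, 14.1 and 17.2 CPM in KO (log2 fold change 1.74 ± 0.15 SE, adjusted p = 2.10e-05). Twist1, Gas1, Mmp2, Cxcl12 and the PDGF receptor Pdgfra (1.91, adjusted p = 1.36e-04) rose too. The call of Cxcl12 was lost on leaving out any single library except KO replicate 3 (edgeR adjusted p = 0.0531 to 0.151). The most abundant marker, podoplanin, Pdpn, was not called (0.28, adjusted p = 0.370). Pdgfrb (0.95, adjusted p = 0.117), Fap (0.88, adjusted p = 0.358), Dpt (0.41, adjusted p = 0.535) and Lepr (-0.62, adjusted p = 0.603) were tested and not called either. Thy1 had 2 to 12 counts per library, Twist2 0 to 6, Lepr 2 to 18 and Tcf21 0 to 1, so these markers were near the counting floor in both groups. Gas1 had 2, 22 and 14 counts in WT, so its call rests on few WT reads. What part stromal cells had in the matrix values was not tested.

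Values per library are in the order of replicates 1, 2 and 3, and a difference is KO minus WT on the log2 scale with its standard error (SE) and edgeR's adjusted p. Fibrillar collagens, which form the banded fibrils of skin, bone and scar, were the most abundant class of chains. Of 11 fibrillar chains, 8 were tested and 5 rose, while 8.44% of all tested genes were called higher. Col1a1 and Col1a2 encode the chains of type I collagen, the main fibril former. Col1a1, on chromosome 11, had 66.2, 50.9 and 61.4 CPM in WT and 125, 99.7 and 116 CPM in KO (log2 fold change 0.91 ± 0.12 SE, adjusted p = 6.09e-04). Col1a2, on chromosome 6, had 71.9, 65.4 and 94.6 CPM in WT and 203, 142 and 183 CPM in KO (log2 fold change 1.16 ± 0.16 SE, adjusted p = 6.08e-04). The lowest KO library exceeded the highest WT library for each of these chains, by 99.7 against 66.2 CPM for Col1a1 and 142 against 94.6 CPM for Col1a2.

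Type V collagen is a minor component that sets fibril diameter. Its chain Col5a1 had 3.72, 3.73 and 4.74 CPM in WT and 15.1, 10.3 and 12.9 CPM in KO (log2 fold change 1.62 ± 0.18 SE, adjusted p = 1.26e-04). Col5a2 had 6.72, 10.8 and 9.92 CPM in WT and 38.8, 26.6 and 33.5 CPM in KO (log2 fold change 1.82 ± 0.18 SE, adjusted p = 7.15e-05), so both rose by over 3-fold (3.08-fold and 3.53-fold) and neither overlapped between groups. The third type V chain, Col5a3, had 0.259 to 1.25 CPM and was not called (1.31, adjusted p = 0.0772). Its KO libraries all lay above the WT libraries, as for 18.2% of all tested genes. Col11a1 was not called either (0.70, adjusted p = 0.262). Col11a2, a chain of the type V and XI family best known in cartilage, was called from very few reads, 57 counts over the KO libraries and 4 over the WT libraries. Per total count this is a ratio of 15.6, with a 95% exact binomial interval of 5.78 to 59.3 that covers counting error only. On the log2(FPKM + 1) scale, which understates changes of low genes, its difference was 0.092 and the call was lost (limma-trend adjusted p = 0.142).

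Col3a1, the chain of type III collagen that accompanies type I in soft tissue, did not pass. It had 31.0, 20.9 and 21.2 CPM in WT and 26.1, 30.3 and 33.3 CPM in KO (log2 fold change 0.27 ± 0.16 SE, adjusted p = 0.306), and its groups overlapped. Its neighbour on chromosome 1 is Col5a2. Col3a1 spans 45311538 to 45349706 (GRCm38) and Col5a2, the next protein-coding gene in RefSeq, 45374331 to 45503282, and Col5a2 was called while Col3a1 was not. Compared per length, the FPKM of Col1a1 over that of Col3a1 was 2.0, 2.29 and 2.72 in WT and 4.50, 3.09 and 3.26 in KO. The KO ratios were all above the WT ratios, and the exact permutation p (two-sided) was 0.1, the smallest that 3 against 3 allows. For Col1a2 over Col3a1 the ratios were 2.47, 3.33 and 4.76 in WT and 8.29, 4.99 and 5.86 in KO (exact p = 0.1). Both ratios were chosen after the values were seen.

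Start-site sequences of 4 members are printed to show what lies upstream of 3 members that rose and of Col3a1, which did not pass. They come from RefSeq on GRCm38.p6, whose table held 55 of the 76 members, and each is the 250 bases before the annotated start, read on the gene's strand. Bgn (proteoglycan) lies at chrX:73483351-73483600, plus strand, Serpinh1 (collagen chaperone) at chr7:99353240-99353489, minus strand, Col8a1 at chr16:57754738-57754987, minus strand and Col3a1 at chr1:45311288-45311537, plus strand. None of these windows overlaps an annotated GENCODE exon or the RefSeq span of its gene. The motifs below were searched for on either strand and are in capitals. GGGCGG is the GC box, which reads CCGCCC where it lies on the other strand. CCAAT is the box of that name. TATAAA is the TATA box. TGANTCA is the AP-1 type motif.
Bgn: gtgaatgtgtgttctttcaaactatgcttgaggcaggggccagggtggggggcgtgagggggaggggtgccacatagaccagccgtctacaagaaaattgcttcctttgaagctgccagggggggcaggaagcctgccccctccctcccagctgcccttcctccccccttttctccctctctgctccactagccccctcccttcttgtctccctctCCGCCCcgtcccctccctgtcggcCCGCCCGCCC
Serpinh1: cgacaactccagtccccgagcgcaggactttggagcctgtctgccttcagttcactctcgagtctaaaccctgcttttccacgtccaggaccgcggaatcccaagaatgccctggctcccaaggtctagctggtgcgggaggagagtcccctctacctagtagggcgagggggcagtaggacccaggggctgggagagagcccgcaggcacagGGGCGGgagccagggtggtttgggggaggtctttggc
Col8a1: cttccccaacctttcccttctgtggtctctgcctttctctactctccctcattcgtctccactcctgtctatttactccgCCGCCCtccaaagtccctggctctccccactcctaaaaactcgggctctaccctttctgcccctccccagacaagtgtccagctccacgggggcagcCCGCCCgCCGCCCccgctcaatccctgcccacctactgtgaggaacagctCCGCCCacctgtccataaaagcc
Col3a1: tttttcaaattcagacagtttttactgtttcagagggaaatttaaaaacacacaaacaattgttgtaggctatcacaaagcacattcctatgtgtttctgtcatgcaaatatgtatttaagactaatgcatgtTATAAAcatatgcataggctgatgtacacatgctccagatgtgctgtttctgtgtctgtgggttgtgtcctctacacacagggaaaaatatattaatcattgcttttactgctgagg
GGGCGG matched 3 times in the Bgn window, where 2 matches overlap, once in Serpinh1, 4 times in Col8a1 and 0 times in Col3a1, whose single match was TATAAA. The printed windows are examples and do not show how often a motif occurs. Among windows of members that rose, 18 of 24 held GGGCGG (75%), against 15 of 30 windows of tested members that were not called (50%), 56.9% of 12538 windows of tested genes and 32.7% of all 32851 windows. The 24 windows came from 21 of the 30 members that rose, and the 30 windows from 23 genes. The CCAAT box was in 7 of 24 and 11 of 30 windows, against 35.3% of those of tested genes. The TATA box was in 4 of 24 and 4 of 30, against 6.51%. The AP-1 type motif was in 1 of 24 and 0 of 30, against 4.68%. A match is a description of letters, not of a bound site, and some genes have more than 1 window.

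Beaded-filament and network collagens were sparser. Type VI collagen forms fine filaments around cells, and of its 3 tested chains Col6a1 was called. Col6a1 had 1.18, 1.34 and 2.13 CPM in WT and 4.14, 4.22 and 4.05 CPM in KO (log2 fold change 1.39 ± 0.26 SE, adjusted p = 0.00406). Col6a2, the next protein-coding gene to it on chromosome 10, had 2.03 ± 0.496 CPM in KO and 1.15 ± 0.0859 CPM in WT (SD, n = 3). It was not called (0.80, adjusted p = 0.0893). All its KO libraries lay above all WT libraries, as for 18.2% of all tested genes. Col6a3 stood at 0.416 to 1.33 CPM over all libraries and was not called (-0.028, adjusted p = 0.982).

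Col8a1, a short chain of the network type found in vessel walls and remodelling tissue, rose 4.11-fold. It had 2.28, 2.02 and 2.40 CPM in WT and 11, 7.63 and 9.38 CPM in KO (log2 fold change 2.04 ± 0.19 SE, adjusted p = 3.54e-05), a gap between groups of more than 3-fold. Its partner chain Col8a2 had at most 4 counts in a library and was not tested. The basement membrane chains Col4a1 (0.16, adjusted p = 0.727) and Col4a2 (0.28, adjusted p = 0.410), which lie on opposite strands of chromosome 8 and overlap at their starts, were not called. Col18a1, the source of endostatin and by mean FPKM the third chain in WT after those of type I, had 28.1, 31.4 and 47.1 CPM in WT and 30.8, 20.4 and 37.1 CPM in KO (log2 fold change -0.30 ± 0.22 SE, adjusted p = 0.406), with overlapping groups. It overlaps Slc19a1 on the other strand, and although the kit marks strand, how strand was set in counting is unknown here, which makes its value uncertain. Col15a1 (0.489 to 1.26 CPM) and Col4a5 (0.312 to 0.735 CPM) were not called.

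Fibril-associated collagens sit on the surface of fibrils. Col16a1 had 1.59, 1.41 and 2.18 CPM in WT and 6.10, 5.80 and 7.23 CPM in KO (log2 fold change 1.86 ± 0.22 SE, adjusted p = 2.16e-04). Col12a1, induced by mechanical load in connective tissue, had 0.922, 2.09 and 1.59 CPM in WT and 4.23, 2.50 and 4.29 CPM in KO (log2 fold change 1.22 ± 0.32 SE, adjusted p = 0.0239). That call was lost without KO replicate 1, KO replicate 3 or WT replicate 1 (edgeR adjusted p = 0.0825, 0.0953 and 0.0722) and on the log2(FPKM + 1) scale (limma-trend adjusted p = 0.0571). The other 4 tested chains of this class, Col14a1, Col19a1, Col20a1 and Col9a3, were not called. Col9a3, at 1 to 23 counts per library and overlapped by Tcfl5 on the other strand, was called lower without KO replicate 2 (edgeR -3.34, adjusted p = 0.0264) or without that library and WT replicate 3 (edgeR -3.59, adjusted p = 0.00949). Among transmembrane chains, Col23a1 was tested and not called (0.75, adjusted p = 0.403).

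In total, 9 of 24 tested collagen chains rose and 0 fell (background 8.44% and 6.21%). FPKM divides each count by the gene's length. The chains' summed FPKM was 40.2, 35.7 and 46.0 in WT and 85.2, 64.4 and 80.9 in KO. The means were 40.7 ± 5.13 in WT and 76.8 ± 11 in KO (SD, n = 3 each). The two-sided exact permutation p was 0.1, the smallest possible. Col1a2 and Col1a1 were the leading chains in every library. The share of Col1a2 was 36.2 ± 2.79% in WT and 43.7 ± 1.72% in KO, and that of Col1a1 was 24.8 ± 2.68% and 25 ± 1.00%. Col5a2 took 3.45 ± 1.04% in WT and 6.46 ± 0.364% in KO. The share of Col18a1 was 12.0 ± 2.27% in WT and 5.26 ± 1.01% in KO, and that of Col3a1 was 10.9 ± 2.81% and 7.12 ± 1.50%. Shares did not overlap between groups for Col1a2, Col5a2 and Col18a1 (exact p = 0.1 each) and overlapped for Col1a1 and Col3a1 (exact p = 0.8 and 0.2). Col8a1 and Col5a1 took larger shares in KO and Col20a1 a smaller one, also without overlap (exact p = 0.1 each). A share also moves with the sum of all chains. By level, Col18a1 (log2 fold change -0.30, edgeR adjusted p = 0.406) and Col20a1 (-0.19, adjusted p = 0.656) were not called.

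**Figure D2:**
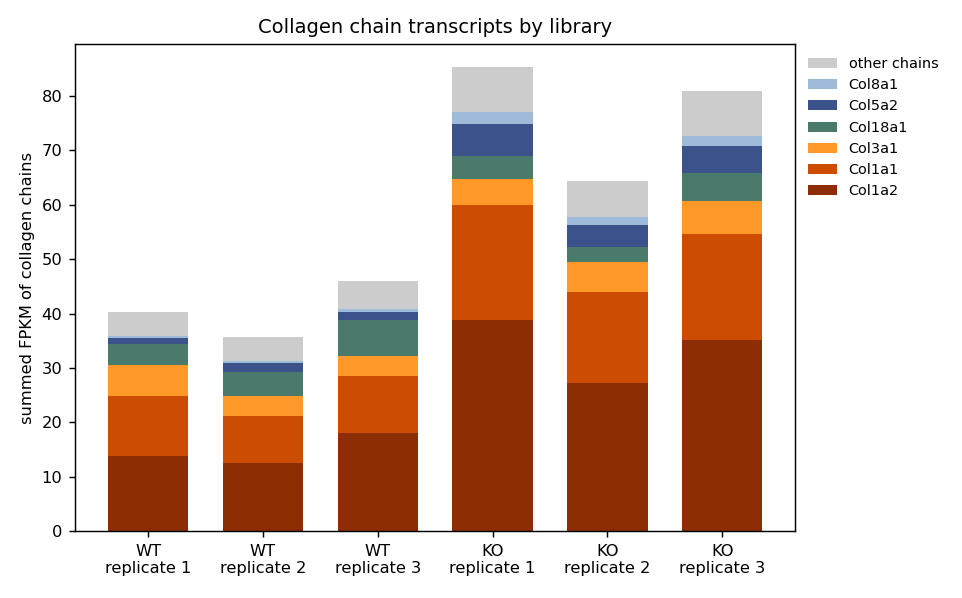
Stacked bars of the FPKM of collagen chains (vertical axis, linear from 0) in each of the 6 libraries, with the 6 chains of highest mean level in colour and all other chains in grey. The KO bars reach 85.2, 64.4 and 80.9 FPKM and the WT bars 40.2, 35.7 and 46.0, and the type I chains make up most of each bar.

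Chains that join in 1 molecule or lie side by side were compared as ratios within each library. For 4 pairs both chains had at least 10 counts in every library. Col1a1 over Col1a2 was 0.810, 0.686 and 0.572 in WT and 0.543, 0.619 and 0.557 in KO. These overlapped (log2 difference -0.25, exact p = 0.2, adjusted p = 0.4 over the 4 pairs). Col5a1 over Col5a2 was 0.430, 0.268 and 0.371 in WT against 0.302, 0.302 and 0.299 in KO (difference -0.22, exact p = 0.4, adjusted p = 0.533). Its KO values lay close together and within the WT range. Col4a1 over Col4a2 was 1.05, 0.740 and 0.758 in WT and 0.837, 0.516 and 0.962 in KO (difference -0.17, exact p = 0.8, adjusted p = 0.8). Col6a1 over Col6a2 had the widest shift, from 1.48, 1.71 and 3.06 in WT to 2.43, 3.39 and 3.77 in KO (difference 0.67, exact p = 0.2, adjusted p = 0.4), and its groups overlapped as well. No pair thus had ratios that separated the groups, and with 3 libraries each no exact test could pass 0.05.

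**Figure D3:**
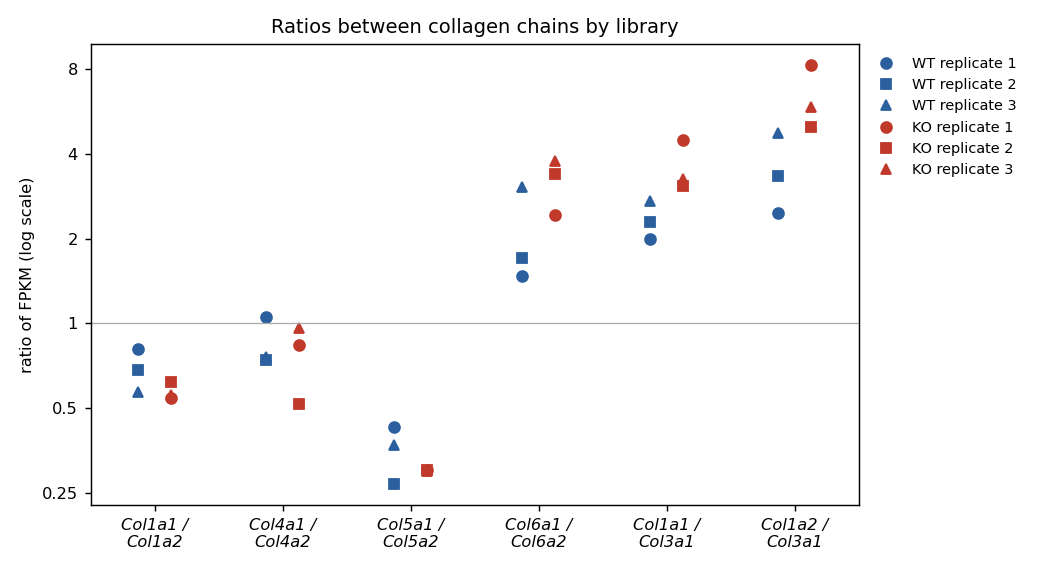
Ratio of FPKM between collagen chains (vertical axis, log scale) in each library, with WT in blue and KO in red and a symbol for each replicate number. WT and KO points overlap for the 4 pairs on the left, and for Col1a1 and Col1a2 over Col3a1 the KO points, from 3.09 and 4.99 upward, lie above all WT points.

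Of 12 tested enzymes and chaperones that mature collagen, 7 rose and 0 fell (background 8.44% and 6.21%). The chaperone Serpinh1 (HSP47), which binds folded procollagen in the endoplasmic reticulum, had 12.0, 15.8 and 13.2 CPM in WT and 51.4, 55.8 and 48.1 CPM in KO (log2 fold change 1.90 ± 0.13 SE, adjusted p = 5.07e-06). Pcolce, which enhances removal of the C-terminal propeptide, had 3.60, 3.81 and 4.20 CPM in WT and 18.6, 14.4 and 16.4 CPM in KO (log2 fold change 2.06 ± 0.15 SE, adjusted p = 6.02e-06). Both rose about 4-fold (3.73-fold and 4.18-fold) with tight libraries in each group.

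Prolyl 4-hydroxylases stabilise the collagen helix. Of their catalytic subunits, P4ha2 had 1.21, 1.14 and 1.54 CPM in WT and 4.85, 5.13 and 3.86 CPM in KO (log2 fold change 1.81 ± 0.24 SE, adjusted p = 4.76e-04). P4ha1, at far higher levels, had 71.3, 69.0 and 67.2 CPM in WT and 84.7, 81.2 and 74.8 CPM in KO and was not called (0.19, adjusted p = 0.230). The prolyl 3-hydroxylase P3h1 had 17.6, 16.7 and 20.8 CPM in WT and 23.6, 18.6 and 23.0 CPM in KO (0.22, adjusted p = 0.322) and was called only in the fit without WT replicate 3 and KO replicate 2 (edgeR 0.40, adjusted p = 0.0218). Lysyl hydroxylases prepare cross-links and sugar attachment. Plod2, a lysyl hydroxylase, had 1.41, 1.94 and 1.78 CPM in WT and 5.88, 3.98 and 4.75 CPM in KO (log2 fold change 1.48 ± 0.23 SE, adjusted p = 0.00135). Plod1 had 588, 532 and 620.0 CPM in WT and 527, 532 and 494 CPM in KO (-0.19, adjusted p = 0.253) and Plod3 had 243, 237 and 272 CPM in WT and 289, 273 and 286 CPM in KO (0.15, adjusted p = 0.342), neither of them called. Per length, the called P4ha2 and Plod2 (1.97 and 0.515 FPKM in KO) lay below P4ha1, Plod1 and Plod3 (19.5, 159 and 86.3 FPKM in KO), which were not called. P4ha3, a catalytic subunit outside the members and lower still at 0.322 FPKM in KO, was not called either (1.42, adjusted p = 0.172). Plod3 overlaps Znhit1 on the other strand.

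Lysyl oxidases cross-link collagen and elastin outside the cell. Lox had 17.9, 15.1 and 18.3 CPM in WT and 62.9, 54.6 and 61.6 CPM in KO (log2 fold change 1.78 ± 0.12 SE, adjusted p = 3.39e-06). Loxl1 had 2.28, 3.43 and 2.59 CPM in WT and 9.82, 7.5 and 10.1 CPM in KO (log2 fold change 1.69 ± 0.20 SE, adjusted p = 1.94e-04). Each rose over 3-fold, and Lox was the enzyme of this family with the smallest adjusted p. Loxl2 had 0.922, 1.99 and 1.05 CPM in WT and 3.15, 5.02 and 2.73 CPM in KO (log2 fold change 1.44 ± 0.35 SE, adjusted p = 0.0166), without overlap. Its call was lost without KO replicate 2 (edgeR 1.11, adjusted p = 0.0575), WT replicate 1 (1.24, adjusted p = 0.0618) or both WT replicate 3 and KO replicate 2 (0.96, adjusted p = 0.0700). In transcript sequence, Loxl2 shares 46.1% of its 32-base words with other genes. Outside the members, Loxl2 shares most with the predicted gene Gm21451, so its value is uncertain. Loxl3 had 49.3, 49.2 and 58.8 CPM in WT and 70, 59.8 and 68.2 CPM in KO and was not called with all libraries (0.31, adjusted p = 0.0886). It was called without WT replicate 3 (edgeR 0.41, adjusted p = 0.0327) or KO replicate 2 (0.36, adjusted p = 0.0479), and it overlaps Htra2 on the other strand.

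Of 5 proteoglycans tested, 4 rose and 0 fell (background 8.44% and 6.21%). Biglycan, Bgn, a small leucine-rich proteoglycan that can also signal through Toll-like receptors when released, was the member of smallest adjusted p. It had 29.7, 28.9 and 38.9 CPM in WT and 175, 143 and 155 CPM in KO (log2 fold change 2.25 ± 0.14 SE, adjusted p = 2.08e-06), so the lowest KO library stood more than 3-fold above the highest WT library. Decorin, Dcn, which binds type I fibrils and TGF-beta, had 15.3, 17.5 and 13.6 CPM in WT and 50, 58.3 and 53.4 CPM in KO (log2 fold change 1.78 ± 0.13 SE, adjusted p = 5.63e-06). The related Lum is the next protein-coding gene to Dcn on chromosome 10 and was not called, at 1.68 ± 0.201 CPM in KO and 1.27 ± 0.297 CPM in WT (SD, n = 3; 0.38, adjusted p = 0.446). The adjacent pair Dcn and Lum thus held a member that rose 3.43-fold and a member with overlapping groups, as did Col5a2 and Col3a1.

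Perlecan, Hspg2, the large heparan sulfate proteoglycan of basement membranes, had 3.49, 4.62 and 9.97 CPM in WT and 22.1, 12.5 and 18.7 CPM in KO (log2 fold change 1.52 ± 0.33 SE, adjusted p = 0.00947). Its WT libraries were uneven, and without WT replicate 3 the log2 fold change was 2.11 (edgeR adjusted p = 9.49e-06). Versican, Vcan, a large hyaluronan-binding proteoglycan that monocytes and macrophages make, had 9.63, 13.6 and 14.9 CPM in WT and 20.6, 15.7 and 21.1 CPM in KO (log2 fold change 0.56 ± 0.17 SE, adjusted p = 0.0463). This call lay near the threshold. Leaving out KO replicate 1, KO replicate 3, WT replicate 1 or WT replicate 2 ended it (edgeR adjusted p = 0.129, 0.143, 0.160 and 0.0785), as did each limma-trend fit of FPKM (adjusted p = 0.0828 to 0.103).

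Some elastic-fibre proteins share calcium-binding EGF modules with the latent TGF-beta binding proteins, some of which hold growth factor in the matrix. Of 8 tested genes of both kinds, 4 rose and 0 fell (background 8.44% and 6.21%). Ltbp2 had 2.10, 2.02 and 2.98 CPM in WT and 23.2, 13.8 and 20.8 CPM in KO (log2 fold change 2.99 ± 0.22 SE, adjusted p = 6.91e-06), the largest difference of any member with at least 1 CPM, at 7.95-fold. Ltbp1, which carries latent TGF-beta into the matrix, had 6.63, 8.35 and 9.97 CPM in WT and 22.5, 18.5 and 20 CPM in KO (log2 fold change 1.26 ± 0.16 SE, adjusted p = 3.37e-04). Both were free of overlap between groups, while Ltbp3, more abundant per length in WT than either (7.54 FPKM, against 1.06 for Ltbp1 and 0.268 for Ltbp2), had 32.7, 34.9 and 57.2 CPM in WT and 47.2, 29.1 and 41.9 CPM in KO (-0.11, adjusted p = 0.801). Ltbp3 changed sign with the libraries used, at 0.21 without WT replicate 3 and 0.064 without KO replicate 2, and was called higher without both (edgeR 0.36, adjusted p = 0.0173). Ltbp4, at 4 to 44 counts per library, was not called (1.51, adjusted p = 0.110), but was without WT replicate 3 (edgeR 2.54, adjusted p = 0.0130).

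Fibulin-2, Fbln2, an elastic-fibre and basement membrane linker, had 2.80, 2.35 and 3.06 CPM in WT and 14.3, 9.70 and 15.6 CPM in KO (log2 fold change 2.24 ± 0.20 SE, adjusted p = 2.95e-05). Fibrillin-1, Fbn1, the backbone of microfibrils, had 4.41, 3.28 and 5.33 CPM in WT and 13.3, 8.25 and 9.01 CPM in KO (log2 fold change 1.21 ± 0.22 SE, adjusted p = 0.00419). Both rose without overlap. Emilin1, an elastic-fibre glycoprotein and the most abundant member of this class, had 189.9, 163 and 228 CPM in WT and 291, 209.7 and 266 CPM in KO (0.37, adjusted p = 0.110) and overlapped. It was called without WT replicate 3 (edgeR 0.52, adjusted p = 0.0175) or KO replicate 2 (0.49, adjusted p = 0.0256). Elastin itself, Eln, had 8 to 15 counts per library and Mfap5 had 1 to 3, so neither was tested, and Fbln1 was not called (0.89, adjusted p = 0.296).

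Adhesive and matricellular proteins held the only member that fell and, per length, the most abundant member in KO. Of their 8 tested genes, 4 rose and 1 fell (background 8.44% and 6.21%). Osteopontin, Spp1, a phosphoprotein ligand of integrins and CD44 made by macrophages and bone cells, had 231, 341 and 240.1 CPM in WT and 608, 606 and 619.8 CPM in KO (log2 fold change 1.16 ± 0.14 SE, adjusted p = 2.35e-04). Its level per length was 381 ± 4.53 FPKM in KO and 168 ± 38.1 FPKM in WT (SD, n = 3). In transcript sequence Spp1 shares 14.1% of 32-base words with other genes, and outside the members most with Gm42793. Fibronectin, Fn1, had 37.3, 31.8 and 56.6 CPM in WT and 136, 73.2 and 105 CPM in KO (log2 fold change 1.29 ± 0.23 SE, adjusted p = 0.00335). The acidic glycoprotein Sparc, which binds collagen in the secretory pathway and outside, had 39.0, 37.4 and 36.8 CPM in WT and 69.4, 67.8 and 70.9 CPM in KO (log2 fold change 0.86 ± 0.094 SE, adjusted p = 1.30e-04), with the libraries of each group within a few CPM of each other. Tenascin-C, Tnc, a glycoprotein of wounds that LPS induces in macrophages, had 8.91, 11.8 and 11.2 CPM in WT and 24.5, 15.7 and 18.8 CPM in KO (log2 fold change 0.86 ± 0.17 SE, adjusted p = 0.00556).

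Spondin-1, Spon1, a secreted protein related to thrombospondins by its repeats and best known in the nervous system, fell 3.30-fold. It had 10.1, 12.4 and 12.4 CPM in WT and 3.92, 2.61 and 4.26 CPM in KO (log2 fold change -1.72 ± 0.19 SE, adjusted p = 1.30e-04), and every KO library lay below every WT library. Thrombospondin-1, Thbs1, an activator of latent TGF-beta that macrophages make, had 262, 273 and 342 CPM in WT and 362, 214 and 325 CPM in KO (log2 fold change 0.012 ± 0.17 SE, adjusted p = 0.976), with KO replicate 2 the lowest library of all and WT replicate 3 the highest of its group. It was called higher without these 2 libraries (edgeR 0.32, adjusted p = 0.0159). Postn (0.68, adjusted p = 0.108) and Thbs2 (0.48, adjusted p = 0.346) stayed under 4 CPM in every library and were not called. For each of them the KO libraries lay above the WT libraries, as they did for 18.2% of all tested genes.

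The class of basement membrane linkers, here laminin chains and the bridging protein nidogen-1, had 3 tested genes. Of these, 2 rose and 0 fell (background 8.44% and 6.21%). The laminin chain Lamb1 had 2.62, 3.36 and 3.15 CPM in WT and 13.5, 8.28 and 12.3 CPM in KO (log2 fold change 1.87 ± 0.20 SE, adjusted p = 1.08e-04). Nidogen-1, Nid1, which bridges laminin and collagen IV, had 2.36, 2.75 and 1.78 CPM in WT and 7.04, 5.02 and 7.51 CPM in KO (log2 fold change 1.48 ± 0.22 SE, adjusted p = 0.00110). The chain Lamc1, more abundant per length, had 41.8, 38.6 and 66.9 CPM in WT and 81.4, 44.4 and 70 CPM in KO (0.38, adjusted p = 0.310), and was called without WT replicate 3 (edgeR 0.69, adjusted p = 0.0192). The laminin chains Lamb1 and Lamc1 thus differed in call.

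**Figure D4:**
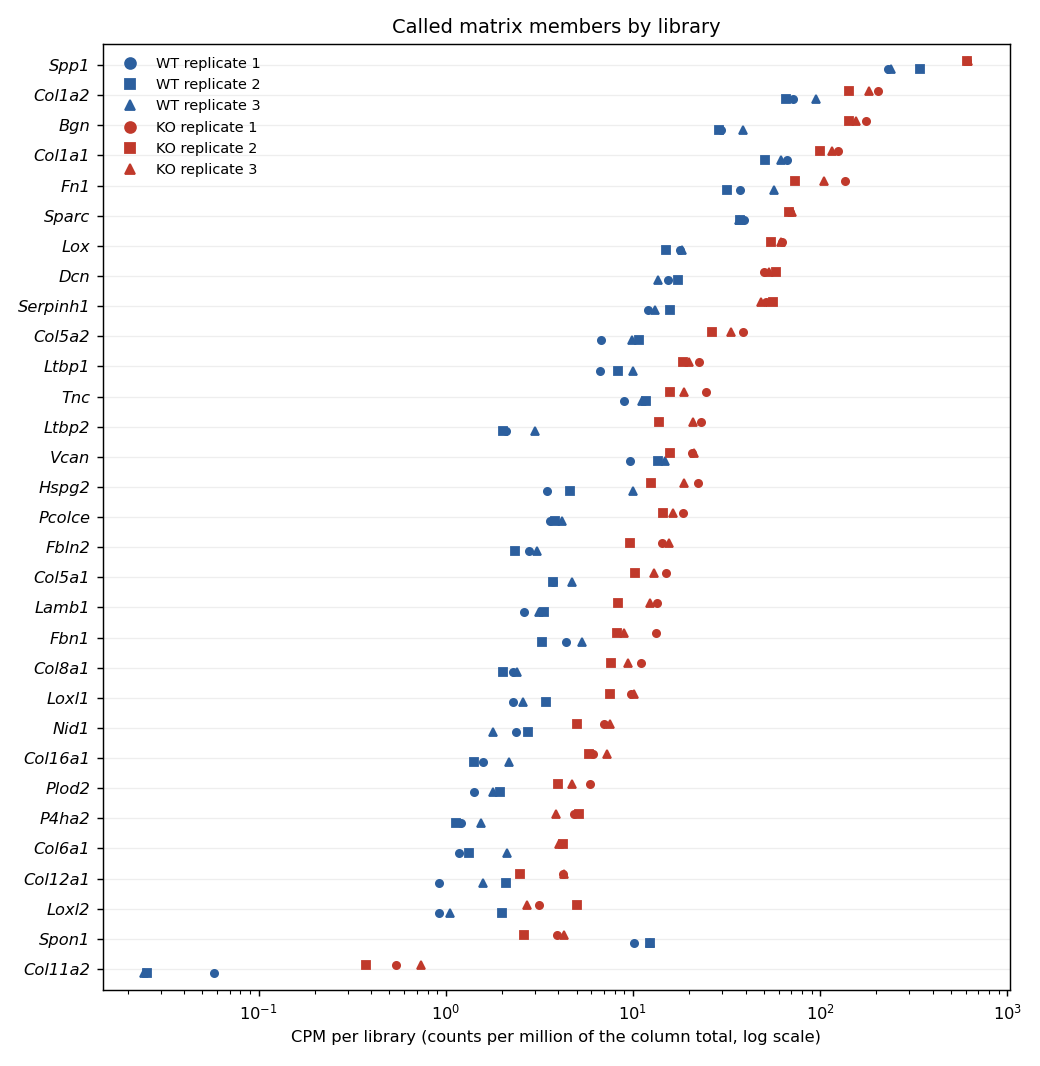
CPM (horizontal axis, log scale) of the 31 called members in each library, ordered by their mean in KO, with WT in blue, KO in red and a symbol for each replicate number. For each gene the red and blue points do not overlap, with the KO points on the right except for Spon1, at 2.61 to 4.26 CPM in KO and 10.1 to 12.4 CPM in WT.

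Members were also read in a fibroblast-type and a macrophage-type list, set from general knowledge. The lists are not exclusive and do not show which cells made the RNA. Tnc, which LPS induces in macrophages, was counted as fibroblast-type. Of 23 fibroblast-type members (among them the type I and III chains, Col5a1, Col5a2, Dcn, Lum, Bgn, Postn, Lox and Sparc), 21 were tested, 14 rose and 0 fell, with a median log2 fold change of 1.16. Their summed level was 699 to 859 CPM in KO and 284 to 333 CPM in WT, so the lowest KO library lay above the highest WT library. The 7 tested ones that were not called were Col3a1, Col6a3, Col14a1, Lum, Postn, Fbln1 and Thbs2, at differences from -0.10 (Col14a1) to 0.89 (Fbln1). Of 4 macrophage-type members, Fn1, Spp1 and Vcan rose and Thbs1 was not called, with a median of 0.86 and summed levels of 909.7 to 1127 CPM in KO and 539 to 659 CPM in WT. Both lists had more members called higher than the 8.44% of all tested genes, and the difference between them was not tested. By mean FPKM the leading member of the fibroblast-type list in KO was Bgn, at 63.4 ± 6.57 FPKM in KO and 13.1 ± 2.24 FPKM in WT. In WT, Col1a2 at 14.8 FPKM and Sparc at 14.3 FPKM led it. These levels lay under that of Spp1 in every library.

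**Figure D5:**
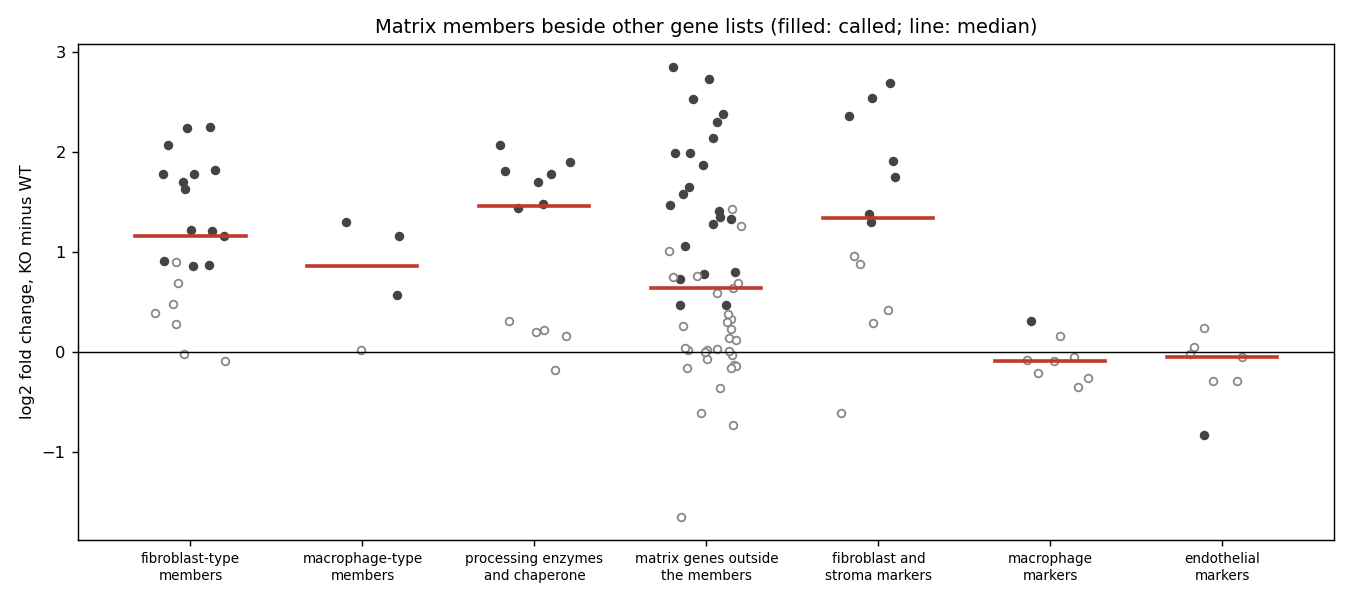
Log2 fold change (KO minus WT, vertical axis) of each tested gene in 7 lists, with called genes filled, other genes open and the median as a red line; horizontal scatter within a list has no meaning. The medians of fibroblast-type members (1.16) and of fibroblast and stroma markers (1.33) lie above 1, and those of macrophage markers (-0.091) and endothelial markers (-0.059) lie just below 0.

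Among 80 further genes for collagen receptors, secretion, processing and other matrix proteins, 53 were tested. Of these, 22 rose and 0 fell (background 8.44% and 6.21%), with a median log2 fold change of 0.64. Ccn2 (connective tissue growth factor) had 11.7, 13.9 and 14.2 CPM in WT and 43.2, 33.4 and 35.0 CPM in KO (log2 fold change 1.46 ± 0.13 SE, adjusted p = 3.39e-05). The collagen uptake receptor Mrc2 had 4.47, 4.26 and 5.72 CPM in WT and 26.9, 15.3 and 22.5 CPM in KO (log2 fold change 2.13 ± 0.20 SE, adjusted p = 4.38e-05). Procollagen processing was represented by the N-propeptidase Adamts2 (log2 fold change 1.64 ± 0.17 SE, adjusted p = 8.00e-05) and by Fkbp10 (log2 fold change 1.98 ± 0.21 SE, adjusted p = 8.91e-05), a chaperone that acts with lysyl hydroxylase. Smoc2, a calcium-binding protein of the SPARC family, had 0.587 to 0.663 CPM in WT and 2.90 to 4.20 CPM in KO (log2 fold change 2.53 ± 0.27 SE, adjusted p = 1.21e-04). Ecm1, the most abundant of these 6 genes, had 184, 172 and 243 CPM in WT and 548, 425 and 499 CPM in KO (log2 fold change 1.27 ± 0.14 SE, adjusted p = 1.41e-04).

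Markers of other cells gave the following counts, beside 8.44% of all tested genes called higher and 6.21% called lower. Of osteoblast markers, 2 of 6 were tested and Sp7 was called higher (2.08, adjusted p = 0.0283), a call lost without KO replicate 1 or WT replicate 1 (edgeR adjusted p = 0.145 and 0.0744), while Runx2 was not called (0.58, adjusted p = 0.213). Of 7 smooth muscle and pericyte markers, 4 were tested and Acta2 was called higher (0.87, adjusted p = 0.0396), which was lost on leaving out any single library except WT replicate 1 (edgeR adjusted p = 0.0580 to 0.110). Chondrocyte markers (2 of 4 tested) had 0 calls, at summed levels of 2.55 to 3.71 CPM in KO and 3.20 to 4.32 CPM in WT. Adipocyte markers (2 of 4 tested) had 0 calls too, at 1.45 to 1.53 CPM in KO and 0.681 to 1.01 CPM in WT. For endothelial markers, 7 of 8 were tested and Kdr was called lower (-0.84, adjusted p = 0.0164), with summed levels of 34.9 to 49.1 CPM in KO and 39.4 to 54.0 CPM in WT. The Kdr call was lost without KO replicate 1, KO replicate 3, WT replicate 1 or WT replicate 3 (edgeR adjusted p = 0.0516 to 0.0698). Of 7 neutrophil and granule markers, S100a8 (0.75, adjusted p = 0.00546) and S100a9 (0.49, adjusted p = 0.0455) were called higher and Mpo (-0.99, adjusted p = 0.00981) and Elane (-0.93, adjusted p = 0.00998) lower. The S100a9 call was lost without KO replicate 1, KO replicate 3, WT replicate 1 or WT replicate 3 (edgeR adjusted p = 0.0864 to 0.156). Of 4 platelet markers, Pf4, which macrophages can also make, was called higher (0.51, adjusted p = 0.0355), a call lost without KO replicate 2, KO replicate 3, WT replicate 1 or WT replicate 3 (edgeR adjusted p = 0.0685 to 0.0981). Dendritic cell, B cell and T cell markers had 1 tested gene each and 0 calls, with summed levels at or under 11.3 CPM. The tested B cell marker, Cd79b, was lower in every KO library (-0.53, adjusted p = 0.0587). It was called lower under 7 alternatives, among them DESeq2 (adjusted p = 0.0330) and edgeR with a replicate block (0.0232), without KO replicate 2 (0.0196), without WT replicate 3 (0.0482) and without both (0.00448). Other markers of highest level in these lists (Comp, Sox9, Tagln, Des, Vwf, Pecam1, Cidec, Adipoq, Ngp, Zbtb46, Cd4, Itga2b and Gp1bb) were not called. What part these cells had in the matrix values was not tested.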

How the data were processed

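RNA of 6 libraries (3 KO, 3 WT) was read from 2 tables that the authors deposited: read counts per gene, and FPKM values. Per the submitters' processing notes, the tools were HTSeq, HISAT2 and fastp and the build was mm10. The kit marks strand, per the labels' protocols, while tool versions and the strand setting of counting were not found. In the deposited tables, the FPKM of values with at least 10 counts followed from the count, the column total and 1 length per gene within 1% for 99.99% of values. Depth was 32631163 to 40913819 counts per library. The quasi-likelihood F test of KO against WT in edgeR 4.0.16 (R 4.3.3) was fitted to the deposited counts of all genes after filterByExpr and TMM scaling, with Benjamini-Hochberg adjustment over 12219 tested genes and calls at an adjusted p under 0.05. The SE is the log2 fold change divided by the square root of F. Ratios of chains were compared by two-sided exact permutation tests. Positions and start sites are RefSeq's, on GRCm38.p6. Overlapping genes and shared 32-base words come from GENCODE M21 on GRCm38. The procedure was checked on simulated counts. Alternatives were other scalings, DESeq2 1.42.0, limma-voom and limma-trend (limma 3.58.1) on log2 FPKM with pseudocounts of 1 and 0.1, other filters, a replicate block and leaving out libraries.

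The members and gene lists were chosen with earlier results of these data known. Named genes were Capns1, every called member, tested members with a mean of at least 20 CPM in KO or WT, both chains of tested pairs, the 6 called matrix genes outside the members of smallest p, and up to 3 markers per cell type list of highest mean CPM. Values per library are given for named members with a mean of at least 1 CPM that were called or of at least 20 CPM. Some further genes are named for their values, which were seen first.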

Additional observations from a re-analysis of the deposited data

How the results depend on the processing

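Of the 31 called members, 27 kept their call under each of the 17 alternatives that gave them a value. Col11a2, Col12a1, Loxl2 and Vcan lost theirs under at least 1. Calls among members numbered 22 to 38 over all alternatives, the lowest with limma-trend on log2(FPKM + 1) and FPKM of at least 1 in 3 libraries, where 34 members were tested. Under that setting 14 matrix genes outside the members and 4 fibroblast and stroma markers were called, as fewer genes were tested. Over all genes, calls numbered 3186 without both WT replicate 3 and KO replicate 2 (1681 higher, 1505 lower), and 1119 to 1741 with 1 library left out. Whether the replicate numbers pair the libraries cannot be settled with 3 libraries per group. Deviations from the group mean correlated at -0.098 for number 1, 0.23 for number 2 and 0.18 for number 3. KO replicates 2 and 3 correlated best with the WT library of their own number, and KO replicate 1 with WT replicate 3 (0.26). With a replicate block in edgeR, 34 members and 2526 genes were called. Another scaling moved the median of all genes by less than 0.1 on the log2 scale. Sign changes occurred for uncalled values, and the cause was not tested. For the Col4a1 over Col4a2 ratio the difference was 0.096 without KO replicate 2 and 0.022 without both libraries, within -0.35 to 0.096 over all cases with libraries left out. The others ranged over -0.44 to -0.13 for Col1a1 over Col1a2, -0.41 to -0.069 for Col5a1 over Col5a2 and 0.46 to 0.99 for Col6a1 over Col6a2, with exact p of 0.1 or more. With WT replicate 3 and KO replicate 2 left out together, log2 fold changes were 0.15 for Col18a1, 0.36 for Ltbp3, 0.26 for Vwf, -0.14 for Pecam1, -0.026 for Adgre1, 0.11 for Itga2b, 0.13 for Col20a1 and 0.038 for Gp1bb. Over all fits with libraries left out they ranged over -0.48 to 0.15 for Col18a1, -0.020 to 0.48 for Col4a1, -0.26 to 0.36 for Ltbp3, -0.12 to 0.32 for Thbs1, -0.57 to 0.26 for Vwf, -0.14 to 0.39 for Pecam1, -0.026 to 0.26 for Adgre1, -0.30 to 0.11 for Itga2b, -0.41 to 0.058 for Gp1bb, -0.73 to 0.70 for Col6a3, -0.43 to 0.25 for Col14a1, -0.54 to 0.19 for Col15a1 and -0.49 to 0.13 for Col20a1. Thbs1 was -0.0068 with limma-voom and -0.0069 with a replicate block. Col6a3 was 0.13 with limma-voom, 0.0092 with limma-trend on log2(FPKM + 0.1) and 0.066 with a replicate block. Depth limits the 16 untested members, at most 17 counts per library.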
